A study of Drosophila melanogaster with 12 samples.

Results

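Whole adult flies labelled AKHR +/- were compared with wild-type flies by sequencing of polyA-selected RNA. Both groups were Canton S, aged 10 to 11 days, and were labelled as having no parental obesity. The libraries were those whose counts fill the table of this comparison: 3 of heterozygous flies (het) and 3 of wildtype flies, numbered 1 to 3 in each group, 6 of the 12 libraries of the series. Libraries with the same number were treated as a set, because the submitters describe each experimental replicate as having yielded 1 set of samples. Of 12971 genes in the table, 12712 passed a filter on low counts and were tested. The labels give neither the sex of the flies nor the kind of AKHR mutation, and they do not say how many flies went into a library.

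Adipokinetic hormone is a peptide released by the neuroendocrine corpora cardiaca. Its receptor, AkhR, is a G-protein-coupled receptor of the fat body, the insect organ that stores fat and glycogen. Signalling through cyclic AMP and calcium leads to the breakdown of these stores when energy is needed, and flies lacking the receptor accumulate fat. Canton S is a common wild-type laboratory strain.

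AkhR itself (listed under the older symbol GRHR, FBgn0025595) is a minus-strand gene of chromosome arm 2L, between positions 6711286 and 6716186 of the dm3 assembly. It was read at 84.0, 71.5 and 81.0 CPM (read counts scaled to a common library size with TMM factors) in het libraries 1 to 3, against 84.6, 77.0 and 84.5 CPM in wildtype libraries 1 to 3. The groups overlapped, and the log2 change of het over wildtype was -0.06 (SE 0.041, edgeR adjusted p = 0.48, 95% interval from -0.14 to 0.03). A count over the whole gene does not check the genotype labels, since a mutation may leave the transcript in place.

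Depth was even, at 18391962, 20082531 and 18130023 listed reads in het libraries against 19610571, 18788289 and 19793734 in wildtype libraries. The sex-biased RNA roX1, which coats the male X chromosome, was present in every library, at 341 to 350 CPM in het and 378 to 387 CPM in wildtype flies. The yolk protein gene Yp1, active in female fat body and ovary, stood at 2.41 to 2.73 CPM in het and 1.85 to 3.91 CPM in wildtype flies.

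In edgeR's quasi-likelihood test with the replicate number as a block, 292 genes rose (2.3%) and 352 fell (2.77%) in het flies, 644 or 5.07% of those tested, at an adjusted p under 0.05. Most differences were small. Of the 12 genes with a log2 change of 1 or more in either direction, 11 lay on 2L, the arm that bears AkhR. The exception was CheB74a on 3L, at 0.697, 0.698 and 0.329 CPM in het against 1.38, 1.29 and 0.865 CPM in wildtype libraries (log2 change -1.03, adjusted p = 0.0487), a call that held under 3 of 13 other ways of processing. All 644 genes moved the same way in the 3 pairs of same-numbered libraries. In 551 the 3 het libraries lay wholly above or below the 3 wildtype libraries, as 19.5% of all tested genes did. The blocked fit that called these genes compares within the same pairs, so neither count is a separate check. How many of all tested genes moved 1 way in the 3 pairs was not counted.

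How many genes passed depended strongly on the fit. On simulated data whose dispersion varied between genes, the blocked fit made more false calls than its threshold allows and the unblocked fit did not, which bears on 644 and on every count of list members from the blocked fit. The simulated counts kept the replicate effects, which the unblocked fit takes as spread between libraries. Without the replicate block 183 genes passed (1.44%), with all 12 libraries in the fit 283 (2.21%), and with DESeq2 and the block 128 (1.01%). Leaving out wildtype replicate 3 gave 414 calls, het replicate 3 gave 280, wildtype replicate 2 gave 271 and het replicate 2 gave 245. The balance of directions depended on the scaling: 45.3% of the called genes rose with TMM scaling, and 64.2% rose when libraries were scaled by depth alone. Under all 13 other ways of processing 75 of the 644 genes passed, 49 on 2L and 26 elsewhere; they were picked out after their values had been seen.

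**Figure D1:**
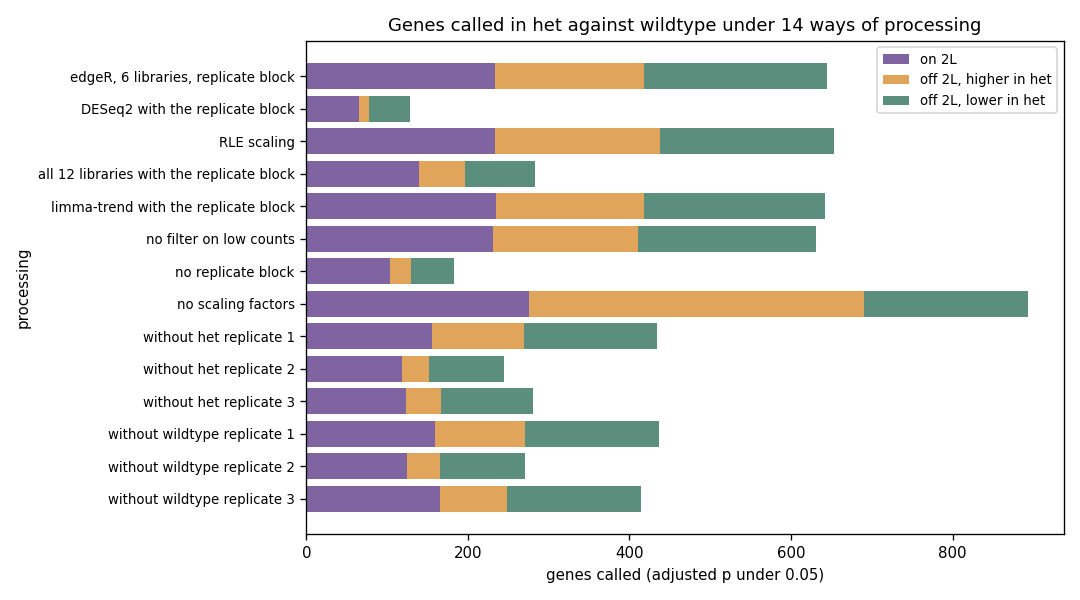
Number of genes with adjusted p under 0.05 (horizontal axis) under 14 ways of processing, split into genes on 2L, genes higher in het off 2L and genes lower in het off 2L. The blocked edgeR fit on 6 libraries called 644, while DESeq2, the fit without the block and the fit over 12 libraries called 128, 183 and 283.

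The plot of calls by way of processing shows that the genes off 2L account for most of this variation. On 2L the count was 234 with the block, 104 without it and 65 with DESeq2. Off 2L it was 410, 79 and 63.

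By chromosome arm, 9.62% of the 2432 genes tested on 2L were called. The share was 5.63% on 2R, 3.6% on 3L, 4.13% on 3R, 1.97% on X and 7.14% on chromosome 4, and 3.99% over all genes off 2L. Along 2L the share was 18.1% in the window 4 to 6 Mb towards the telomere from AkhR and 17.1% in the next window towards the gene. In the outermost window on that side, 6 to 8 Mb from AkhR, it was 8.6%. It was 11.5% in the first 2 Mb on the centromere side, and between 2.89 and 8.53% in the windows beyond that hold at least 20 tested genes; the last window held 7 genes, 0 of them called. The plot of calls by position shows these shares.

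**Figure D2:**
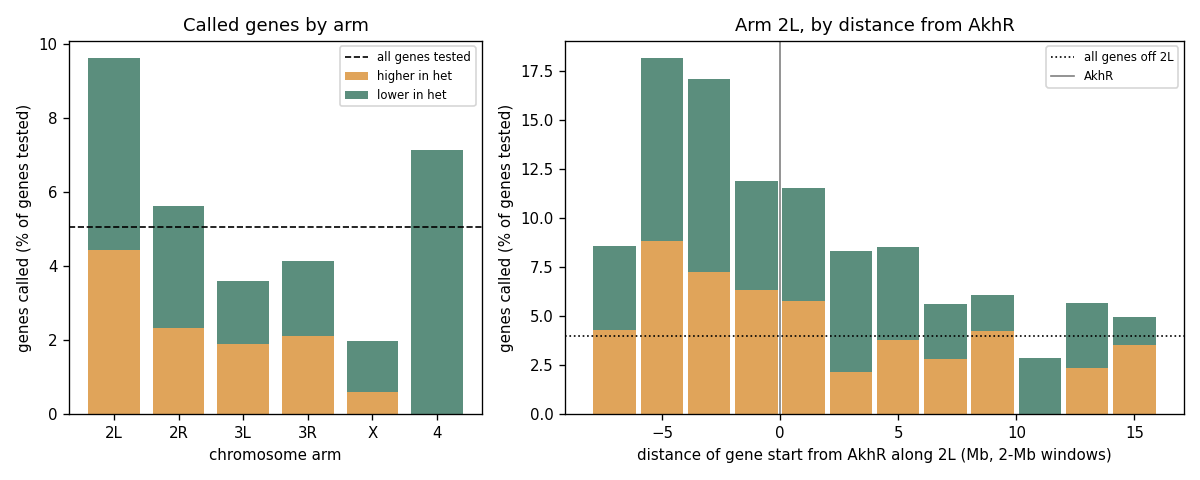
Left, percent of tested genes called higher or lower in het flies on each chromosome arm, with a dashed line at the 5.07% of all genes. Right, percent called in windows of 2 Mb along 2L by distance from AkhR in Mb, with a dotted line at the 3.99% of genes off 2L; the windows from 6 Mb before AkhR to 2 Mb after it hold the highest shares.

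Among called genes on 2L with a mean of 1 CPM or more and no overlap between the groups, the widest rises were CG9505 and CG14945 and the noncoding CR43263, CR43821 and CR43852, and the widest falls CG15818, CG9486, CG43401, CR43648 and CR43808. Many 2L genes of smaller change also passed under every alternative. Cyp4d21, a cytochrome P450 also known as sex-specific enzyme 1, stood at 90.1, 103 and 91.1 CPM in het against 58.7, 55.1 and 52.7 CPM in wildtype libraries (log2 change 0.77, SE 0.0487, adjusted p = 4.93e-09). The seminal fluid gene Sfp26Ad showed the opposite shift, at 160, 187 and 166 CPM in het against 242, 264 and 243 CPM in wildtype (log2 change -0.54, SE 0.0362, adjusted p = 4.93e-09). In neither gene did the groups overlap.

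Other falls on 2L under every alternative covered unlike functions. GABA-B-R3, a receptor subunit for the inhibitory transmitter GABA, had 21.2, 20.7 and 21.2 CPM in het against 28.2, 27.9 and 29.0 CPM in wildtype libraries (log2 change -0.43). Tig (tiggrin), an extracellular matrix ligand of integrins, had 56.1, 54.4 and 58.6 CPM in het against 75.5, 70.6 and 74.4 CPM in wildtype (-0.38), although it overlaps CG13982. The spread within each group was far smaller than the gap between them in both genes. Further falls were in the serpin Spn2 (-0.31), in CG16712, now named IM33 (-0.26), in the ribosomal protein gene RpS21 (-0.21) and in CG11321, whose current name is LUBEL, a ubiquitin ligase (-0.35).

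Rises on 2L of this second rank included the serine hydrolase gene kraken, at 86.9, 92.3 and 89.3 CPM in het against 67.7, 65.4 and 68.7 CPM in wildtype libraries (log2 change 0.41, adjusted p = 2.17e-06). CG31937 had 121, 127 and 121 CPM in het against 80.8, 86.6 and 89.3 CPM in wildtype (0.52, adjusted p = 2.72e-08). Both genes were higher in every het library than in any wildtype library. The sodium-driven anion exchanger Ndae1 (0.26), CG7371, now Vps52 of an endosomal tethering complex (0.38), and the tubulin-modifying enzyme gene TTLL3B (0.22) rose as well.

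Off 2L, 184 genes rose and 226 fell, with a median absolute log2 change of 0.181, and 398 of the 410 changed by less than 0.5. Of the 26 that passed under every alternative, 22 fell and 4 rose. One of these falls was in Idgf5 (2R, 14281170 to 14282787, plus strand), which encodes a secreted chitinase-like imaginal disc growth factor. It stood at 35.0, 34.6 and 39.6 CPM in het against 51.8, 53.6 and 54.4 CPM in wildtype libraries, or 36.4 ± 2.80 and 53.3 ± 1.33 CPM (SD, n = 3 each). The log2 change was -0.55 (SE 0.0508, adjusted p = 4.11e-07), and the highest adjusted p under any alternative was 0.012. Falls in CG12057 (-0.64), alpha4GT2 (-0.56), Cpr72Ec (-0.55) and dpr (-0.50) were called too and did not pass under every alternative.

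Ser8, a trypsin-like serine protease (2R, 9321712 to 9322539), had 29.1, 31.6 and 27.8 CPM in het against 42.5, 50.5 and 38.9 CPM in wildtype libraries (log2 change -0.57, SE 0.0546, adjusted p = 7.04e-07). It overlaps CG42321 on the opposite strand, and no source used here says whether reads were counted by strand. CG10175 (3R, 19348423 to 19356704) had 39.6, 44.9 and 44.4 CPM in het against 59.9, 57.8 and 58.7 CPM in wildtype (-0.45, adjusted p = 6.5e-06). In both genes the lowest wildtype library lay above the highest het library.

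Genes of metabolism and of the lysosome were among the other falls off 2L. Pug encodes an enzyme of the folate one-carbon pathway and stood at 427, 458 and 473 CPM in het against 564, 538 and 558 CPM in wildtype libraries (log2 change -0.29, adjusted p = 3.89e-05); it overlaps CG14683. Ade5, now Paics, encodes an enzyme of purine synthesis and stood at 515, 499 and 502 CPM in het against 634, 539 and 581 CPM in wildtype (-0.21, adjusted p = 0.00158). The groups did not overlap in either gene, though wildtype spread was wide in ade5. Cln3, which encodes a lysosomal membrane protein, had 48.2, 53.0 and 54.4 CPM in het against 66.6, 64.4 and 62.7 CPM in wildtype (-0.32, adjusted p = 0.000463).

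Scp1, a calcium-binding protein of muscle placed on the 2RHet scaffold, fell by 0.26 on the log2 scale, with 358, 396 and 351 CPM in het against 459, 449 and 416 CPM in wildtype libraries. CG11395, now Gbp2, encodes a growth-blocking peptide, a small secreted cytokine-like peptide. It had 196, 202 and 190 CPM in het against 236, 222 and 215 CPM in wildtype libraries (-0.20, adjusted p = 0.00263). CG10863 had 248, 257 and 248 CPM in het against 316, 312 and 306 CPM in wildtype (-0.31, adjusted p = 6.43e-06), and it overlaps CR43916. All 3 genes were lower in every het library than in any wildtype library.

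The 4 rises off 2L that passed under every alternative were narrow and in genes with no common name. CG3124 had 708, 682 and 624 CPM in het against 572, 580 and 568 CPM in wildtype libraries (log2 change 0.23, SE 0.0362, adjusted p = 0.000596). CG3982, CG9389 and CG7131 each rose by 0.19 on the log2 scale. CG3982 and CG7131 overlap CG3967 and CG8064, and their reads may be shared.

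**Figure D3:**
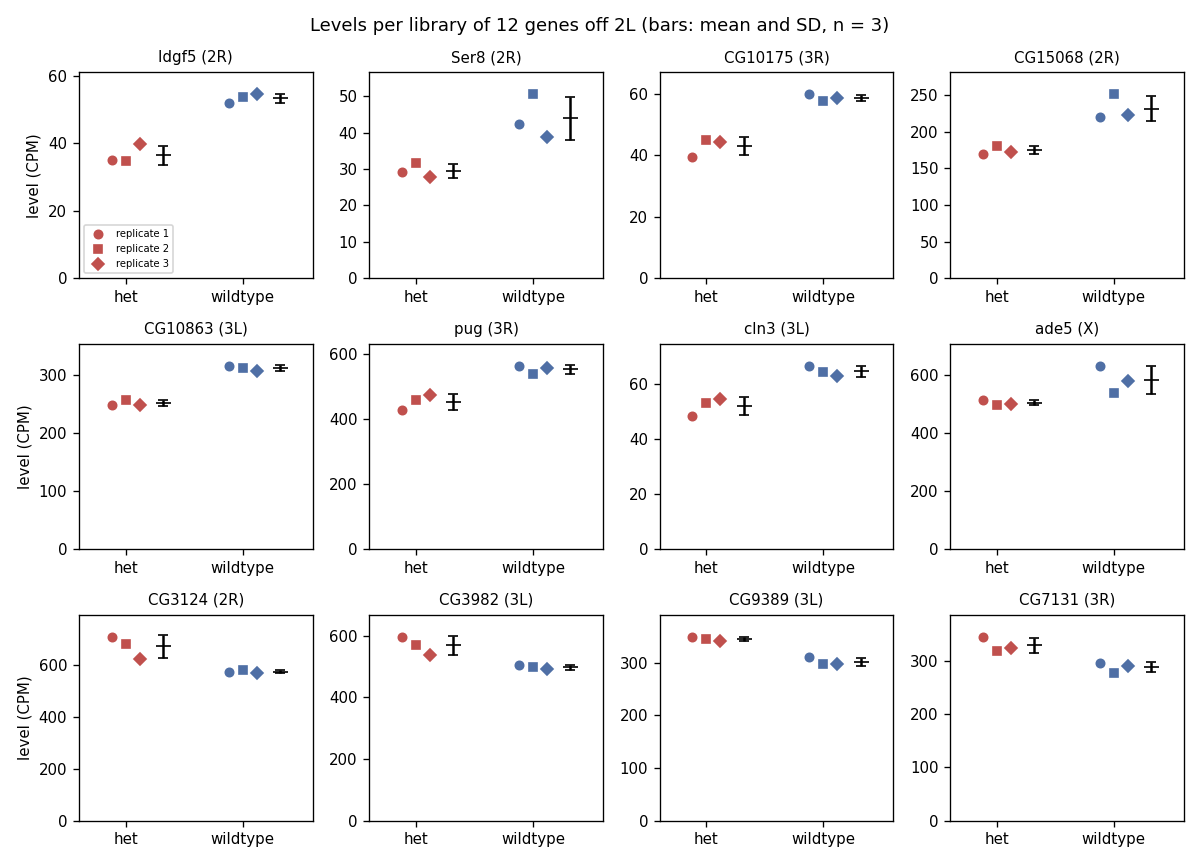
CPM in each library (vertical axis, linear) for 12 genes off 2L that passed under every alternative, het on the left and wildtype on the right; points are libraries 1 to 3 and bars are mean ± SD. Het and wildtype points do not overlap in any of the 12 panels, of which 8 are falls and 4 rises. These genes were picked after their values had been seen, so the lack of overlap is no added support.

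In the plot of single libraries the log2 changes of the falls run from -0.57 to -0.21, and those of the rises from 0.19 to 0.23. The largest rises off 2L were in genes of low count and were less stable. CG2444 had 7.13, 7.68 and 8.82 CPM in het against 4.67, 4.5 and 6.16 CPM in wildtype libraries (log2 change 0.63, adjusted p = 0.00159), and passed under 12 of the 13 alternatives, missing with DESeq2. MtnB, a metallothionein that binds copper and zinc, had 12.2, 10.4 and 8.66 CPM in het against 5.95, 8.2 and 7.33 CPM in wildtype (0.54, adjusted p = 0.0356) and passed under 6. The noncoding CR43416 rose by 0.84 on the log2 scale at a level under 3 CPM in every library (adjusted p = 0.0481) and passed under 5. CG5550 (0.69) and CG9192 (0.55) rose too and did not pass under every alternative.

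Some of the called genes lie side by side. On 2R, CG16836, CG15065, CG15068 and Idgf5 follow each other between 14276600 and 14282787, with log2 changes of -0.19, -0.33, -0.40 and -0.55. CG15068 and Idgf5 passed under every alternative, while CG16836 passed under 6 and CG15065 under 10. The start of Idgf5 lies 3.06 kb beyond the end of CG15068. CG14500 (-0.47) ends 201 kb before CG15068 and CG43066 (-0.37) starts 119 kb beyond Idgf5, with 20 and 23 tested genes in between.

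In the 0.5 Mb of 2R from 14 to 14.5 Mb, 6 of 74 tested genes were called (8.11%), all lower. Of these 4 passed under every alternative, and 4 were called without the replicate block. Over the 182 stretches of 0.5 Mb off 2L with at least 20 tested genes the median share was 3.35%, and this one ranked 15 by its share. On 3R, CG10175 and CG10184 (-0.31) lie 71.5 kb apart, with 8 tested genes in between. These neighbours were noticed after the values had been seen.

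To see which tissues and functions the small shifts fell in, 47 lists of genes were read against all tested genes. They held 1126 different tested genes, of which 133 were called, 30 higher and 103 lower, a share of 11.8% against the 5.07% of all genes (2.3% higher and 2.77% lower). The lists were chosen with earlier results of these data known, so this share does not show where the shifts fell. Counts of called members given below are to be read beside the shares of all genes. In 12 lists no member was called, in 18 all called members fell, in 9 all rose, and in 8 they went both ways. In whole flies, fewer cells of a type and less RNA per cell cannot be told apart.

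**Figure D4:**
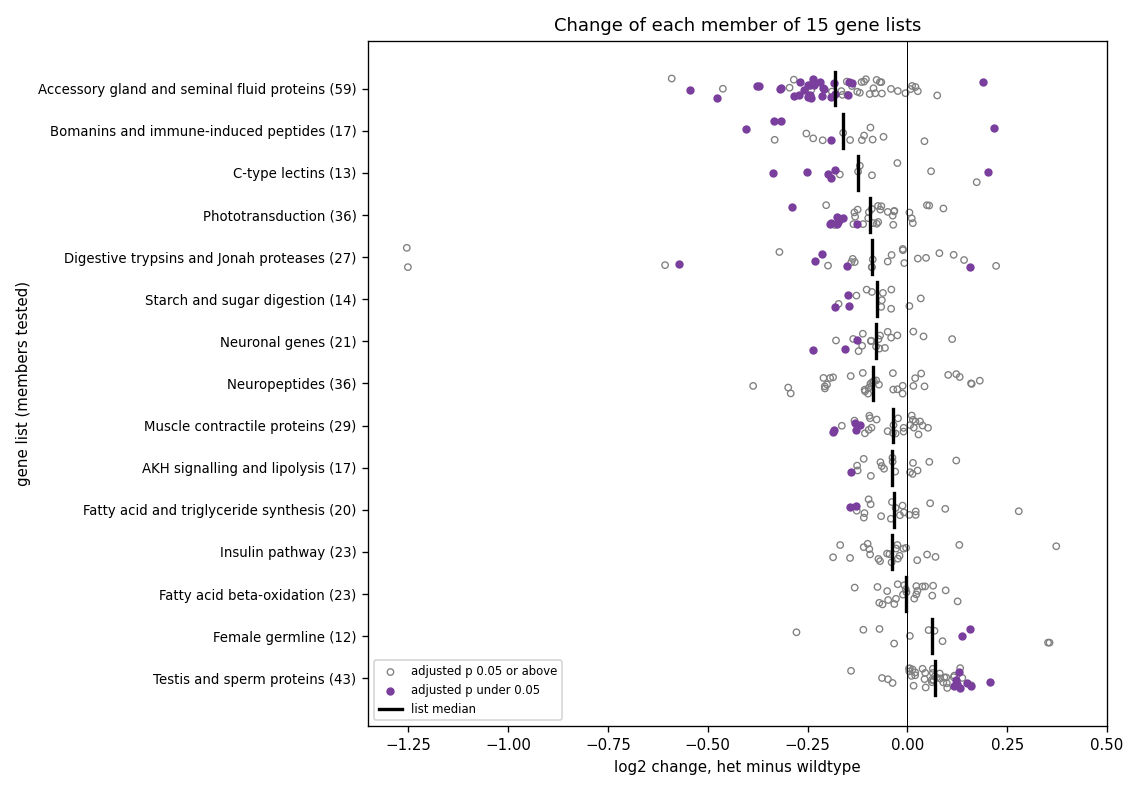
Log2 change of het over wildtype (horizontal axis) for every tested member of 15 lists, filled where the adjusted p was under 0.05; black bars are list medians. The accessory gland list has the lowest median of the widely called lists, -0.18, and the testis list lies to the right of 0, at a median of 0.07.

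The plot of list members shows the most falls of any list in the male accessory gland, which makes the proteins that males transfer in seminal fluid. Of 59 tested members 27 fell and 1 rose, the list median was -0.18 against -0.005 for all genes, and 53 of the 59 had a negative log2 change. On arms other than 2L, 17 of 38 tested members fell in the blocked fit, against 226 of all 10280 genes tested there. Pair by pair the list median was -0.17, -0.23 and -0.11.

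Mst57Dc, a peptide gene of the accessory gland on 3R, had 186, 198 and 204 CPM in het against 218, 239 and 237 CPM in wildtype libraries (log2 change -0.24, adjusted p = 0.000231). Acp76A, which encodes a serpin of the seminal fluid, had 131, 140 and 149 CPM in het against 153, 169 and 164 CPM in wildtype (-0.21, adjusted p = 0.00159). Acp36DE, a sperm storage protein on 2L, had 1480, 1520 and 1560 CPM in het against 1720, 1820 and 1750 CPM in wildtype (-0.21, adjusted p = 0.000314); it overlaps Fas3. These 3, with Acp62F and Sfp26Ad, were the members that passed under every alternative.

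Acp98AB (-0.32, adjusted p = 0.000819) and Mst57Db (-0.32, adjusted p = 0.0207) fell and passed under 10 of 13. The member that rose was Sfp24Ba (0.19, adjusted p = 0.0438), which passed under 6. The sex peptide gene Acp70A, whose product alters the mated female, was at 165, 169 and 225 CPM in het against 252, 261 and 251 CPM in wildtype libraries. Its log2 change of -0.46 did not pass (adjusted p = 0.308), and het library 3 lay well above the other two.

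Without the replicate block 17 members of the accessory gland list fell, with all 12 libraries 13, and with DESeq2 9. It came to 14 when het replicate 2 was left out and to 17 when wildtype replicate 2 was. Summed over the list, the level was 12880, 13520 and 13780 CPM in het against 14320, 15620 and 14690 CPM in wildtype libraries.

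Called genes of the testis and sperm list were all higher in het flies. Of 43 tested members 8 rose (18.6%) and 0 fell, where 2.3% of all tested genes rose. The log2 change was positive in 39 of the 43, and the list median was 0.07. Mst89B had 67.7, 62.0 and 61.8 CPM in het against 56.5, 54.5 and 54.8 CPM in wildtype libraries (0.21, adjusted p = 0.00752). The leucyl aminopeptidase of sperm S-Lap7 had 1590, 1590 and 1510 CPM in het against 1460, 1380 and 1390 CPM in wildtype (0.15, adjusted p = 0.00828). The sperm tail gene dj (don juan) rose by 0.16 (adjusted p = 0.0108).

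None of the 8 passed under every alternative. Without the block 1 member rose, with all 12 libraries 2 and with DESeq2 1, while without scaling factors 14 did. Each library left out lowered the count, to 5 without het replicate 1 or wildtype replicate 1, 3 without wildtype replicate 3, 2 without wildtype replicate 2 and 1 without het replicate 2 or het replicate 3. The summed level was 15860, 15510 and 15410 CPM in het against 15140, 14470 and 14520 CPM in wildtype libraries. The Y-linked fertility genes, also active in the male germline, had 0 of 7 members called, 0 at an unadjusted p under 0.05, and summed to 50.74 to 54.46 CPM in het and 51.25 to 54.26 CPM in wildtype flies. Among 12 genes of the female germline list, orb (0.16) and exu (0.14) rose, and both are also expressed in the male germline; neither passed without the block.

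Genes of phototransduction, the light response of the eye, were called in 1 direction. Of 36 tested members 9 fell and 0 rose, 30 had a negative log2 change, and the median was -0.09. The ultraviolet opsin gene Rh3 had 57.5, 59.1 and 60.5 CPM in het against 66.6, 73.9 and 76.1 CPM in wildtype libraries (log2 change -0.29, SE 0.044, adjusted p = 0.000324). The arrestin gene Arr1, on 2L, had 463, 475 and 470 CPM in het against 539, 551 and 523 CPM in wildtype (-0.19, adjusted p = 0.00127).

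Rh3, Arr1 and the G-protein gamma subunit gene Ggamma30A passed under every alternative, though Ggamma30A overlaps CG43733. NinaE, the main opsin of the outer photoreceptors, had 7420, 7280 and 7290 CPM in het against 8070, 8250 and 8500 CPM in wildtype libraries (-0.17, adjusted p = 0.00179) and passed under 10. The other falls were the pigment-recycling dehydrogenase Pdh (-0.18), the protein kinase C gene inaC (-0.18), the channel gene trpl (-0.17), Gbeta76C (-0.16) and Arr2 (-0.13).

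Of the photoreceptor genes 4 fell without the block, 8 with all 12 libraries and 5 with DESeq2. Leaving out wildtype replicate 3 left 5 falls, het replicate 2 left 4 and het replicate 3 left 3. Summed levels were 11660, 11690 and 11690 CPM in het against 12690, 12990 and 13220 CPM in wildtype libraries, so the groups did not overlap. NinaE alone makes up most of each sum and most of the gap, so the sum says little of the other members. General neuronal genes lay lower too: 18 of 21 had a negative log2 change, at a median of -0.08, and Syt1 (-0.24, overlapping CR43821), nrv3 (-0.16) and n-syb (-0.13) fell, while with all 12 libraries 0 members did, without the block 1, with DESeq2 1, and 1 without replicate 1 or 3 of either group. Their sum was 1152, 1234 and 1216 CPM in het against 1316, 1284 and 1290 CPM in wildtype libraries. Whether the nervous tissue as a whole had a part in the opsin result was not tested. Among 36 neuropeptide genes 0 were called in edgeR with or without the block or in DESeq2, and 7 had an unadjusted p under 0.05.

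**Figure D5:**
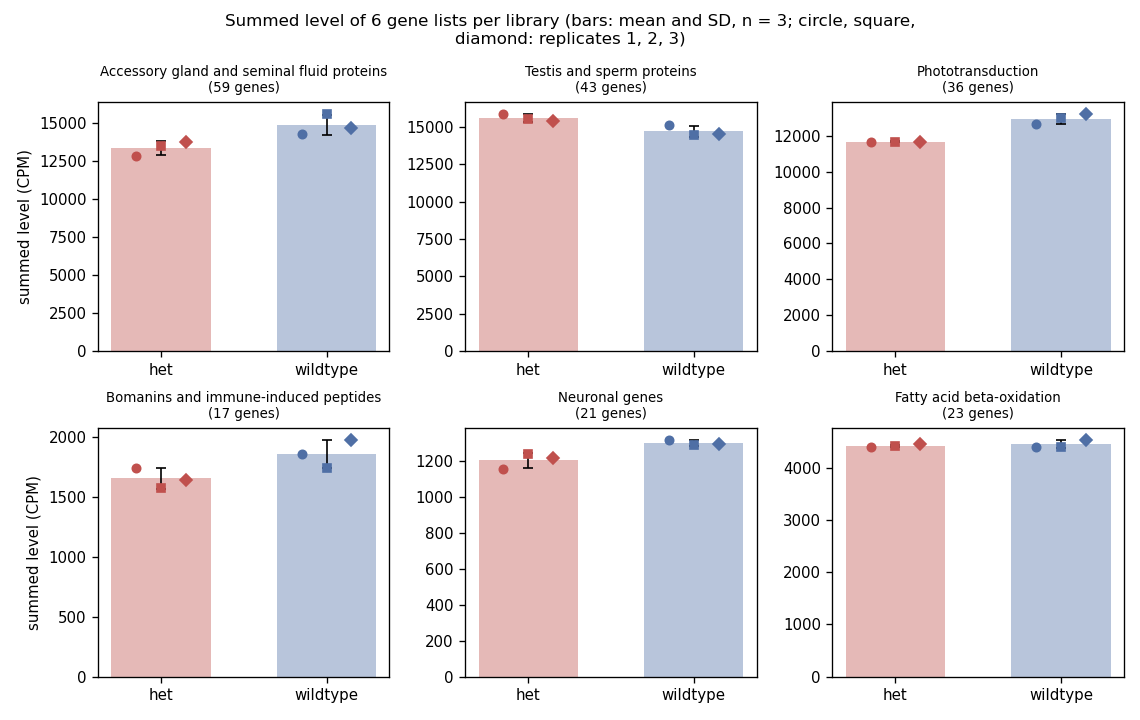
CPM summed over the tested members of 6 lists in each library, het on the left and wildtype on the right, with bars for the mean and error bars for the SD, on axes that start at 0. Accessory gland, phototransduction and neuronal sums are lower in every het library, and the testis sum is higher in every het library. Bomanin and beta-oxidation sums overlap, though the Bomanin sum is lower in het in each same-numbered pair. NinaE makes up most of the phototransduction sum.

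The plot of summed levels sets these groups beside 2 in which het and wildtype overlapped. One is the Bomanins and other immune-induced peptides, short secreted peptides of the response to infection. Of 17 members 4 fell and 1 rose, and 15 had a negative log2 change at a median of -0.16. The sums were 1747, 1580 and 1641 CPM in het against 1864, 1740 and 1979 CPM in wildtype libraries. These ranges overlap, but in each same-numbered pair the het sum was the lower.

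CG15068, now BomS6, had 170, 181 and 173 CPM in het against 220, 251 and 223 CPM in wildtype libraries (log2 change -0.40, SE 0.0364, adjusted p = 3.35e-07). CG5778, now BomT3, had 126, 137 and 145 CPM in het against 175, 167 and 166 CPM in wildtype (-0.32, adjusted p = 0.000616); it overlaps CG5791. Both passed under every alternative, and these were the members called without the block, with 12 libraries or with DESeq2. The Bomanin count of falls was 8 without het replicate 1 or wildtype replicate 1. Of 16 antimicrobial peptide genes 0 were called, with a median of 0.0026 and 4 at an unadjusted p under 0.05. TotX was the 1 of 5 Turandot stress peptide genes to rise (0.45, adjusted p = 0.0327, passing under 9).

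Genes of the gut were lower in part. Of 27 digestive trypsins and Jonah proteases 4 fell and 1 rose, and without the block 1 fell. Besides Ser8, thetaTry (log2 change -0.23) and Jon99Ciii (-0.21) fell, each passing under 11 alternatives. The widest differences of the list lay on 2L and did not pass: Jon25Bi had 226, 464 and 245 CPM in het against 762, 641 and 720 CPM in wildtype libraries, a log2 change of -1.25 (adjusted p = 0.331). Jon25Bii, also on 2L, had 146, 312 and 149 CPM in het against 438, 450 and 476 CPM in wildtype (-1.25, adjusted p = 0.308). In both, every het library was below every wildtype library, and het library 2 stood apart from the others. Without het replicate 2 or wildtype replicate 2, which removes this pair from the contrast, 7 members of the list fell.

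Amylase, the starch-digesting enzyme, is encoded by a pair of nearly identical genes whose reads may be split between them. Amy-d had 841, 869 and 922 CPM in het against 947, 967 and 1080 CPM in wildtype libraries (log2 change -0.18, adjusted p = 0.00171), and Amy-p fell by 0.15 (adjusted p = 0.0136). With Mal-A4, 3 of 14 genes of starch and sugar digestion fell, at a list median of -0.08, and 0 did without the block. Leaving out replicate 2 of either group or het replicate 3 left 1 fall. A list of lipases was drawn by gene name and not by tissue, so it is not a list of gut genes. Of its 13 tested genes 4 fell, CG18284, CG31872 and CG17097 on 2L and Lip3 on 3R. Falls numbered 4 with all 12 libraries, 1 with DESeq2, 0 without the block, and 0 to 2 without any library other than wildtype replicate 3.

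Most genes of fat and sugar metabolism moved little. Gpdh, the cytosolic glycerol-3-phosphate dehydrogenase, was a clear exception, at 618, 541 and 683 CPM in het against 439, 465 and 505 CPM in wildtype libraries (614 ± 70.9 and 470 ± 33.3 CPM, SD, n = 3 each). The log2 change was 0.38 (SE 0.0454, adjusted p = 0.000233). Gpdh passed under 12 alternatives and missed without the replicate block, at an adjusted p of 0.142. It lies on 2L, from 5943643 to 5948843, less than 1 Mb from AkhR.

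Of 17 genes of AKH signalling and lipolysis 1 fell (5.88%), close to the 5.07% of all tested genes that were called. This was the protein kinase A subunit gene Pka-C1 on 2L, at 159, 160 and 159 CPM in het against 173, 172 and 182 CPM in wildtype libraries (log2 change -0.14, adjusted p = 0.0273). It did not pass without the block, with 12 libraries, with DESeq2 or without replicate 3 of either group. The hormone gene Akh was at 14.6, 13.9 and 13.2 CPM in het against 12.3, 12.7 and 13.3 CPM in wildtype libraries (0.12, adjusted p = 0.44). The triglyceride lipase gene bmm (brummer) was at 127, 134 and 143 CPM in het against 151, 132 and 160 CPM in wildtype (-0.13, adjusted p = 0.128). Hormone, receptor and lipase levels overlapped between the groups.

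Of 20 genes of fat synthesis AcCoAS (-0.14, adjusted p = 0.0242) and the desaturase gene desat1 (-0.13, adjusted p = 0.0267) fell, and neither passed without the block, with 12 libraries or with DESeq2. The acetyl-CoA carboxylase gene ACC on 2R was not called in the blocked fit. In the authors' deposited results ACC rose, at a log2 ratio of 0.2224 and an adjusted p score of 20.4. Not called is not the same as lower, and the highest log2 change of any list member in the blocked fit was 0.279. The deposited ratios are not on the edgeR scale: CR43263 stands at 1.0809 among them and at 8.535 in edgeR. Beta-oxidation genes, which break fatty acids down in mitochondria, had 0 of 23 called in edgeR with the block, 3 at an unadjusted p under 0.05, and a median of -0.004. Their sums were 4408, 4420 and 4449 CPM in het against 4406, 4405 and 4541 CPM in wildtype libraries. Of 14 trehalose and glycogen genes 0 were called and 3 had an unadjusted p under 0.05, and of 23 insulin pathway genes these counts were 0 and 4.

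The storage protein gene Lsp1beta, on 2L, was at 234, 297 and 342 CPM in het against 82.5, 134 and 201 CPM in wildtype libraries. The groups did not overlap and the log2 change was 1.13 (SE 0.204), but the adjusted p was 0.193 in edgeR and 3.1e-05 in DESeq2. In both groups the level differed strongly between the replicate sets. The iron carrier gene Tsf1 (0.14), MtnB, the testis thioredoxin gene TrxT (0.13) and Prx2540-2 (0.17) rose among 24 genes of iron handling and oxidative stress, and 0 of these passed without the block or without replicate 1 or 2 of either group.

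Of 94 cytosolic ribosomal protein genes 8 fell (8.51%) and 0 rose in the blocked fit, where 2.77% of all tested genes fell. Falls numbered 2 without the block, 2 with all 12 libraries and 3 with DESeq2. In the blocked fit 74 had a negative log2 change at a median of -0.03. By pair, 35 were lower in het in pair 1, 77 in pair 2 and 88 in pair 3. RpLP2, a stalk protein of the large subunit, had 532, 517 and 599 CPM in het against 612, 650 and 704 CPM in wildtype libraries (log2 change -0.26, adjusted p = 9.1e-05), and RpL38 fell by 0.20. The count of falls was 14 without het replicate 1 or wildtype replicate 1, 3 without het replicate 3 or wildtype replicate 3, and 2 without het replicate 2 or wildtype replicate 2. Without scaling factors 4 fell and 1 rose.

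Of 29 muscle contractile genes 5 fell, 0 did without the block, and 1 or 2 did whichever library was left out. Of 26 serpins 5 fell, and of 32 odorant binding protein genes 5 fell and 2 rose. Of 79 cytochrome P450 genes 7 fell and 3 rose. Over all tested genes 2.77% fell and 2.3% rose. On 2L, where 9.62% of all tested genes were called, lay 3 of the serpin calls, 4 of the P450 calls and 1 of the odorant binding protein calls. Without replicate 2 of either group the falls were 1 serpin, 1 odorant binding protein gene and 2 P450 genes, and without the block 2, 1 and 2. The dosage compensation RNA roX1 fell by 0.15 on the log2 scale (adjusted p = 0.00973), and this call ended without the block.

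On chromosome 4, all 6 called genes of 84 tested fell. CaMKII, a calcium-dependent kinase of neurons, had 112, 126 and 112 CPM in het against 141, 135 and 124 CPM in wildtype libraries (log2 change -0.19, adjusted p = 0.0135), and het library 2 lay above wildtype library 3. Ephrin, an axon guidance ligand, had 46.7, 46 and 47.7 CPM in het against 54.3, 53.0 and 52.2 CPM in wildtype (-0.18, adjusted p = 0.0239). CaMKI (-0.16), CG32017 (-0.30), bt (-0.13) and Pur-alpha (-0.15) were the others. The arm's median was -0.07, and none of the 6 passed under every alternative.

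On the X chromosome CG15572 fell, with 72.5, 73.2 and 69.8 CPM in het against 95.8, 90.2 and 94.8 CPM in wildtype libraries (log2 change -0.38, SE 0.0419, adjusted p = 5.49e-06), and passed under every alternative.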

How the data were processed

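RNA of whole adult flies was measured in 3 het and 3 wildtype libraries, made with a TruSeq polyA kit per the labels' protocols. The authors deposited tables of genes on D_melanogaster_Apr_2006 coordinates per the file headers; Novoalign, DESeq and the dm3 build appear in the submitters' processing notes. Versions, annotation and strand setting are not known from these sources. Read counts per gene were deposited as whole numbers by the authors and were used as deposited. The authors also deposited FPKM values, log2 ratios from DESeq and adjusted p-values written as a score. That score was read as minus 10 times the log10 of adjusted p, and the same scale for the exon score was not tested. FPKM, log2 ratios and scores of the authors entered no test.

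Counts were fitted in edgeR 4.0.16 (R 4.3.3) with TMM scaling, filterByExpr (minimum count 10, minimum total 15) and robust quasi-likelihood, with the replicate number as a block. Benjamini-Hochberg adjustment ran over all 12712 genes, at a threshold of 0.05. The biological coefficient of variation was 0.0372, with 2 residual degrees of freedom before moderation across genes. Levels are TMM-scaled CPM, errors are SD over 3 libraries, and changes are log2 of het over wildtype with the standard error of the fit. Genes carry the symbols in the authors' files. Of them, 12463 were found in a list of current names, where 2694 had another symbol. Of the genes, 5297 overlap another listed gene. Sums of CPM over a list add genes of unlike length. Depth was 18130023 to 20082531 listed reads per library.

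The same-numbered libraries come from 1 experimental replicate by the series design, and the titles were taken to number these sets. The correlation across genes of library deviations (each from its own group mean) was r = 0.0277, 0.131 and 0.162 for same numbers, and from -0.165 to 0.0402 for different numbers. Libraries of a group differed by more than sampling noise.

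Alternatives were the fit with no replicate block, all 12 libraries, RLE scaling, no scaling factors, no filter, DESeq2 1.42.0 (no independent filtering), limma-trend 3.58.1 with a prior count of 2, and each library left out. In the last, the partner of the missing library no longer informs the contrast. The edgeR steps were tested on simulated data. There, with dispersion varying between genes, the blocked fit made more false calls than its threshold allows, while the unblocked fit did not. The simulated counts kept the replicate effects of the blocked fit. These add to the spread that the unblocked fit sees and lower its calls, so its result there does not rank the fits.

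The comparison, the 47 lists and the rule for named genes were chosen with earlier results of these data known. By that rule AkhR, up to 8 rises and 8 falls off 2L, and 5 of each on 2L were taken. These were the largest log2 changes among called genes that averaged 1 CPM or more and whose groups did not overlap. Up to 4 called members per list with the smallest p were added, and for metabolic lists up to 2 where none passed. Not all genes taken in this way are described above. Genes passing under all 13 alternatives, neighbours on 2R and 3R, members that did not pass and chromosome 4 genes were chosen after their values were seen. Of the ovary markers, the eggshell genes Vm26Aa and Cp36 and the maternal genes osk and bcd were not found by symbol among the listed genes. They were therefore not analysed here.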

Additional observations from a re-analysis of the deposited data

Results flagged for a closer look

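CG15572, an X-linked gene that fell in het flies, also differed between het flies and flies of that genotype that had an obese parent. In a blocked edgeR fit over all 12 libraries its mean was 95.7 CPM in flies with an obese father and 44.0 CPM in flies with an obese mother, against 72.0 CPM in het flies; wildtype flies stood at 93.9 CPM (n = 3 each). The log2 difference was 0.411 for paternal minus het (edgeR adjusted p = 0.000164) and -0.709 for maternal minus het (adjusted p = 5.71e-08). It was the 1 gene called in the first of these contrasts, and 1 of 2 in the second, with lectin-28C, out of 12797 tested. The 2 contrasts share the het libraries.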

How the results depend on the processing

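Over 166 genes, named in the text or passing under every alternative, 0 of 2158 values changed direction across the 13 alternatives. Many of these genes were picked because they were called, and every alternative reuses counts of the same het and wildtype libraries. Few reversals could arise among genes picked in this way, so their absence is no separate check. AkhR stayed uncalled near -0.06. Counts of calls depended on the fit. Without the replicate block 183 genes passed (69 higher, 114 lower, 104 on 2L and 79 off it, of these 26 higher and 53 lower), of which 182 had passed with the block. With all 12 libraries 283 passed (113 higher, 170 lower, 140 on 2L and 143 off it, 56 and 87 by direction). DESeq2 gave 128 (39 higher, 89 lower, 65 and 63 on and off 2L, 13 and 50 off it by direction). Called list members numbered 133 in the blocked fit, 41 without the block, 58 with 12 libraries and 38 with DESeq2, and called named genes 105, 38, 56 and 37.

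Without scaling factors, where the median of all genes moved to 0.0143, 573 genes were higher, and 617 passed off 2L, 414 of them higher. RLE scaling, limma-trend and no filter gave 653, 642 and 631 calls. With a library left out, calls ran from 245 to 437 (87 to 171 higher, 158 to 268 lower). They ran from 118 to 166 on 2L and from 127 to 278 off it (34 to 113 higher, 93 to 166 lower), from 56 to 111 for list members and from 51 to 73 for named genes. Het replicate 2 gave the lowest total. Of the 105 named called genes 23 passed under every alternative. Depth limits genes near 1 CPM, and with 3 libraries per group p-values rest on spread shared across genes. On simulated data the blocked fit made more false calls than its threshold allows and the unblocked fit did not; how much of the gap between 644 and 183 this accounts for was not tested.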

Other observations

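The authors' deposited table of gene-level results for het against wildtype flies lists 143 genes past the threshold, 49 higher and 94 lower, of which 83 lie on 2L. Of these 141 were also called in the blocked edgeR fit.

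The authors' deposited table also names the exon of most altered usage for 99 genes, 24 of them on 2L, and 26 of these have a score above 0. The exon of mustard (mtd) on 3R from 1149161 to 1149569 carries a log2 ratio of -1.14 and a score of 51.7 in the authors' deposited table, while the log2 change of the gene was -0.07 in edgeR (adjusted p = 0.336). For dpr3, an immunoglobulin gene on 2L, the authors' deposited table lists an exon from 2066742 to 2067160 at 1.41, with a score of 42.5, and the gene as a whole fell by 0.19 on the log2 scale in edgeR (adjusted p = 0.045). The direction in which the exon ratio is formed was not tested.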
